A study of Mus musculus with 10 samples.

Results

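The epidermal growth factor (EGF) receptor family and its ligands were followed in RNA-seq of mouse livers with diet-induced steatohepatitis. The 9 genes were taken by symbol from a table of 17274 genes, and all 9 were found: the receptor genes Egfr, Erbb2 and Erbb3, and the ligand genes Egf, Tgfa, Hbegf, Areg, Btc and Ereg. All 10 samples were livers of wild-type mice on a high-fat diet that lacks choline and has defined amino acids (CDAHFD), a model in which livers take on fat, inflammation and scarring. The mice had received an adeno-associated virus (AAV), used to carry genes into cells, through a vein. In 5 samples it was a control AAV and in 5 it encoded miR-181d-5p, a microRNA. No group on a normal diet or without virus was analysed here. The age and sex of the mice and the promoter and capsid of the vector are not given in the sources used here. No label ties each numbered sample to an animal of its own. The p-values therefore reflect only sample-to-sample spread, some of which may be technical.

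EGF receptors are tyrosine kinases in the cell membrane that pair when a ligand binds and then signal through Ras and MAP kinases, PI3 kinase and STAT proteins. The ligands are made as membrane proteins and are cut free by metalloproteases. In adult liver the EGF receptor and ErbB3 are abundant on hepatocytes, and the ligands are known as growth signals during regeneration and injury. ErbB2 binds no known ligand of its own and acts as a partner of the other receptors, and ErbB3 has little kinase activity of its own and binds neuregulins.

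Values are FPKM, that is, fragments relative to the length of the gene and the depth of the library. Library totals recovered from the values ran from 18985912 to 20657019 reads. Hepatocyte markers were high throughout: 11 of 12 were matched by symbol, with summed levels of 34123 to 41046 FPKM in control and 35992 to 40450 FPKM in miR-181d-5p livers. Alb, which encodes albumin, had the highest level of them (22375 ± 1562 against 22982 ± 1299 FPKM, SD, n = 5 each). Of 12053 genes tested with limma, 0% (0 genes) had a Benjamini-Hochberg adjusted p under 0.05, the lowest adjusted p being 0.142. An unadjusted p under 0.05 was reached by 1768 genes, 14.7% of those tested. By voom on recovered reads 0 genes passed, and 2 with sample quality weights, neither of them an EGF family gene. Control liver 5 stood apart in genes induced within minutes of a stimulus, and control livers 1 and 2 in a trend with gene length. Control liver 5 had a length trend of nearly the same size in the opposite direction. The values of these livers stand beside the results they touch.

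Because the vector encodes a microRNA, its sequence and its matches in the EGF family transcripts are shown first. MicroRNAs pair with 3' untranslated regions (UTRs) of transcripts mainly through bases 2 to 8, the seed, given here in capitals. The seed ACAUUCA is shared by miR-181a-5p, miR-181b-5p, miR-181c-5p and miR-181d-5p. The sequence is RefSeq's (GRCm38.p6, the same assembly as mm10).
mmu-miR-181d-5p: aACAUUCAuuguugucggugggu

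The longest annotated 3' UTR of each of the 9 genes (GENCODE vM21, mm10) was searched for a 7mer-m8 (TGAATGT, pairing with the whole seed), an 8mer (TGAATGTA, the same followed by A) and a 7mer-A1 (GAATGTA). Egfr and Btc held 1 match each and Ereg held 2. All 4 were 7mer-m8 matches in the last exon of the transcript, and the other 6 genes had none. For comparison, 23.0% of the 11770 tested genes that have a 3' UTR in GENCODE held a match. The Egfr match lies at chr11:16915962-16915968 on the plus strand, from base 4107 of a 3' UTR of 6303 bases. The Btc match lies at chr5:91359227-91359233 on the minus strand, from base 97 of 2069. The Ereg matches lie at chr5:91093320-91093326 and chr5:91093471-91093477 on the plus strand, from bases 3175 and 3326 of 3501. They are shown with their surroundings 5′ to 3′ as RNA-strand DNA letters, the match in capitals.
Egfr: tttctcttaggTGAATGTctagcattatta
Btc: gctagcagaaaTGAATGTttaaatattgta
Ereg, first match: catgatgccttTGAATGTcatagagcatat
Ereg, second match: ttattggattaTGAATGTtatcagagtact
Whether livers use these UTRs to their ends was not tested. A match describes the letters and is not a measured binding site.

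The genes spanned a wide range of levels. Per length, Erbb3 (mean of 17.4 FPKM over 10 livers) and Egfr (16.3) stood highest. The ligands Tgfa (10.7), Areg (5.21), Btc (4.35), Hbegf (2.01) and Ereg (1.18) followed, then Erbb2 (0.808) and Egf (0.0800). Erbb3 exceeded Egfr in 6 of 10 livers only, so that pair was not ordered beyond its spread. Egfr exceeded Tgfa in 8 livers, and Tgfa exceeded Areg in all 10. Areg exceeded Btc, Btc exceeded Hbegf and Hbegf exceeded Ereg in 9 of 10 livers each. Ereg exceeded Erbb2 in 8 livers, and Erbb2 exceeded Egf in 10. The plot of levels by liver shows this order and which groups separate.

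**Figure D1:**
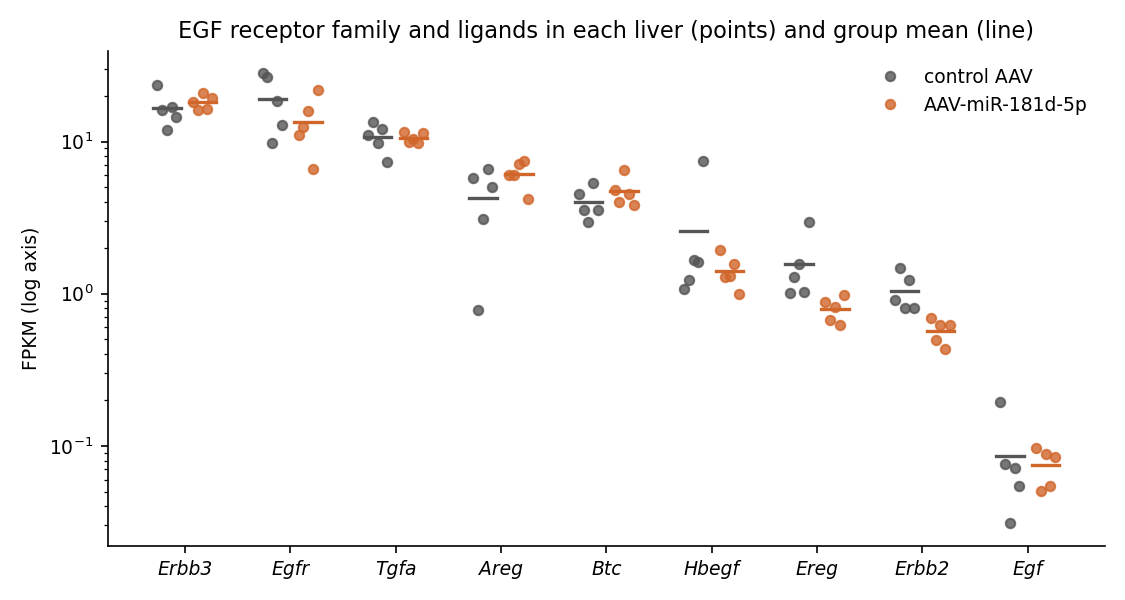
FPKM of the 9 genes in each of 10 livers on a log axis, with control AAV livers in grey, AAV-miR-181d-5p livers in orange and a line at each group mean. Only Erbb2 and Ereg have groups that do not overlap, with all miR-181d-5p livers below all control livers.

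Of the 9 genes, 8 had a mean of at least 0.5 FPKM and were tested, and Egf lay under that filter. By limma 0 of the 8 had an adjusted p under 0.05, against 0% of all genes. Erbb2 and Ereg, 2 of 8, had an unadjusted p under 0.05, as did 14.7% of all genes. These 2 were also the genes whose groups did not overlap, a pattern found in 2.47% of all tested genes (298). Of the 8, 4 had a higher mean log2 value in miR-181d-5p livers and 4 a lower one, with a median log2 change of -0.17 against -0.02 over all genes tested. Log2 changes are on the log2(FPKM + 1) scale, miR-181d-5p minus control, which understates the change of low genes. In bulk liver RNA, fewer cells of a type and less RNA per cell cannot be told apart.

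Among the receptors, Erbb2 (chromosome 11, 98412470 to 98437716, plus strand) separated the groups. It stood at 0.911, 1.48, 0.805, 1.23 and 0.803 FPKM in control livers 1 to 5. In miR-181d-5p livers 1 to 5 it stood at 0.687, 0.494, 0.622, 0.431 and 0.624 FPKM. Every miR-181d-5p liver was below every control liver, also after rescaling to a common sum and after quantile normalization. The nearest livers held 77 reads (control liver 5) and 67 reads (miR-181d-5p liver 1), a gap within counting error. The means were 1.04 ± 0.297 against 0.571 ± 0.105 FPKM (SD, n = 5 each), so the miR-181d-5p mean was 54.7% of control. By limma the log2 change was -0.37 (SE 0.10) with an adjusted p of 0.221, so Erbb2 did not pass. On scales that weigh low genes more, a pseudocount of 0.1 gave -0.75 and voom on recovered reads gave -0.84, with adjusted p of 0.220 and 0.206. Over 20 alternatives that include Erbb2 the adjusted p ran from 0.138 to 0.501. The level rests on 41 to 141 reads per liver. Its mean lies under 1 FPKM, so the stricter filter drops it. Its exons share 9 bases with Mien1 on the opposite strand, and Erbb2 held no seed match in its 1048 bases of 3' UTR.

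Markers of bile duct cells, an epithelium of the liver, moved with Erbb2. All 12 were in the table and none was at 0 in every liver. Their summed level ran from 303 to 547 FPKM in control and from 136 to 409 FPKM in miR-181d-5p livers. All 10 tested markers had a lower mean log2 value in miR-181d-5p livers, beside 54.5% of all tested genes. Spp1, the most abundant of them and also made by macrophages, stood at 329 ± 86.3 against 204 ± 83.7 FPKM. It made up most of the sum in every liver, such as 461 of 547 FPKM in control liver 4 and 98.7 of 136 FPKM in miR-181d-5p liver 4. The summed level is therefore largely a measure of Spp1. Over 10 livers the log2 level of Erbb2 and the log2 summed bile duct level had a Pearson r of 0.78 and a Spearman rho of 0.75. With stellate cell and fibroblast markers the values were 0.72 and 0.84. These livers share the group difference in both measures, and the part of these cells in the Erbb2 result was not tested.

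Egfr (chromosome 11, 16752203 to 16918158, plus strand), which encodes the founding receptor of the family, varied widely within both groups. It stood at 28.1, 26.4, 9.75, 18.5 and 12.8 FPKM in control livers 1 to 5 and at 11.0, 12.4, 15.8, 6.64 and 21.8 FPKM in miR-181d-5p livers 1 to 5. Control livers 1 and 2 were the highest of all, miR-181d-5p liver 4 was the lowest, and the groups overlapped over most of their range. The highest liver held 4.22 times the level of the lowest. The means were 19.1 ± 8.07 against 13.5 ± 5.69 FPKM (SD, n = 5 each). The log2 change of -0.46 (SE 0.31) had an adjusted p of 0.491 by limma and lay within the spread between livers. With 1088 to 4662 reads per liver, counting error is a small part of this spread. Without miR-181d-5p liver 4 the log2 change was -0.25 and without control liver 1 it was -0.30 (adjusted p = 0.789 and 0.686).

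The level of Egfr followed a trend with gene length that differed between livers. For each liver, the deviation of every tested gene from its own mean was regressed on log2 gene length. The trend was 0.119 and 0.120 log2 units per doubling of length in control livers 1 and 2. It was -0.037 and -0.006 in control livers 3 and 4, and -0.099 in control liver 5. It ran from -0.032 to 0.009 in miR-181d-5p livers. The Egfr model, at a recovered length of 8593 bases, is long beside a median of 3326 for tested genes. Over 10 livers, log2 Egfr and the trend had a Pearson r of 0.75 and a Spearman rho of 0.78. With the trend removed from each liver, an alternative chosen after seeing the data, the log2 change of Egfr was -0.36 (adjusted p = 0.474). The part of this trend in the spread of Egfr was not tested further. The tested genes were ranked by likeness of log2 level to Egfr over 10 livers, leaving out predicted genes, RIKEN clones and pseudogenes. The highest were Nsf, a vesicle fusion ATPase (Pearson r 0.96), Map4k5, a kinase (0.96), and Myo1e, a myosin (0.95). They were picked for their high r, which was not tested.

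**Figure D2:**
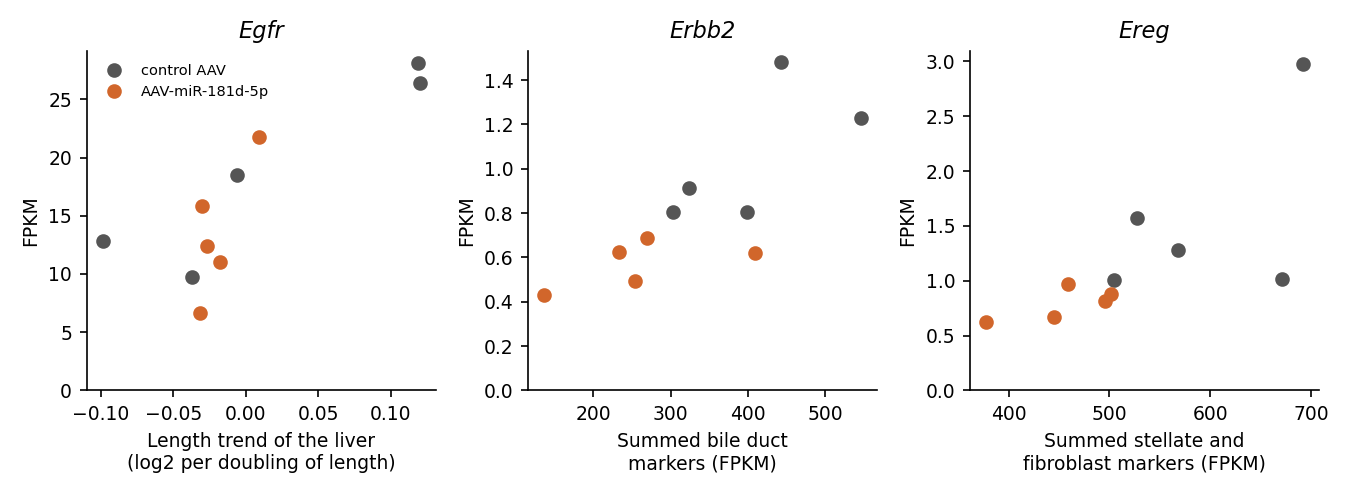
FPKM of Egfr against the length trend of each liver (log2 units per doubling of gene length), of Erbb2 against summed bile duct markers (FPKM, mostly Spp1) and of Ereg against summed stellate cell and fibroblast markers (FPKM), 1 point per liver, control AAV in grey and AAV-miR-181d-5p in orange. Control livers 1 and 2 sit at the upper right of the Egfr panel, at 28.1 and 26.4 FPKM.

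Erbb3 (chromosome 10, 128567523 to 128589652, minus strand), the neuregulin receptor of hepatocytes, differed little between groups. It stood at 23.6, 16.2, 11.9, 16.9 and 14.4 FPKM in control livers 1 to 5 and at 18.1, 16.1, 20.7, 16.4 and 19.2 FPKM in miR-181d-5p livers 1 to 5. The miR-181d-5p livers lay inside the control range. The means were 16.6 ± 4.38 against 18.1 ± 1.94 FPKM (SD, n = 5 each), with a log2 change of 0.15 (SE 0.14, adjusted p = 0.639 by limma). Without control liver 1, its highest, the log2 change was 0.28 (adjusted p = 0.250), and without control liver 3, its lowest, 0.04 (adjusted p = 0.893). The genes most like Erbb3 over 10 livers were Srp54a, a subunit of the signal recognition particle (Pearson r 0.97), Zfp143, a transcription factor (0.96), and Abca8b, a lipid transporter (0.94). Egfr exceeded Erbb3 in 3 of 5 control livers and 1 of 5 miR-181d-5p livers. The mean log2 ratio of Egfr to Erbb3 was 0.13 and -0.52, and this difference was not tested.

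Among the ligands, Ereg (chromosome 5, 91074622 to 91093646, plus strand), which encodes epiregulin, a ligand of both the EGF receptor and ErbB4, also separated the groups. It stood at 1.01, 1.28, 1.57, 1.02 and 2.98 FPKM in control livers 1 to 5. In miR-181d-5p livers 1 to 5 it stood at 0.879, 0.667, 0.815, 0.622 and 0.974 FPKM. The groups lay close: the lowest control liver held 81 reads and the highest miR-181d-5p liver 80, a gap within counting error, and after quantile normalization the groups overlapped. The means were 1.57 ± 0.817 against 0.791 ± 0.146 FPKM (SD, n = 5 each), 50.3% of control. By limma the log2 change was -0.48 (SE 0.16) with an adjusted p of 0.250, so Ereg did not pass. Control liver 5 was the highest. Without it the control mean was 1.22 ± 0.265 FPKM (SD, n = 4) and the log2 change -0.31 (SE 0.09), with an adjusted p of 0.159. A pseudocount of 0.1 gave a log2 change of -0.81 and voom gave -0.88 (adjusted p = 0.237 and 0.248). Ereg is the gene with 2 seed matches, and 141 bases of its exons overlap the antisense gene Gm19610.

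Markers of stellate cells and fibroblasts, the scar-forming cells of the liver, moved with Ereg. All 12 were in the table and none was at 0 in every liver. A lower mean log2 value in miR-181d-5p livers was found for all 12, beside 54.5% of all tested genes. The summed level ran from 505 to 692 FPKM in control and from 377 to 502 FPKM in miR-181d-5p livers, so these groups did not overlap either. Dcn, the proteoglycan decorin and the most abundant of them, stood at 251 ± 47.5 against 200 ± 10.8 FPKM. Over 10 livers the log2 level of Ereg and the log2 summed level had a Pearson r of 0.75 and a Spearman rho of 0.92. Summed macrophage markers, 12 of 12 in the table and none at 0 in every liver, ran from 1997 to 2793 FPKM in control and from 1332 to 2606 FPKM in miR-181d-5p livers, with values of 0.55 and 0.61. Lyz2, their most abundant gene, stood at 1456 ± 318 against 1203 ± 375 FPKM. It made up most of the macrophage sum in every liver, such as 718 of 1332 FPKM in miR-181d-5p liver 4. The part of any of these cells in the Ereg result was not tested.

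Hbegf (chromosome 18, 36504927 to 36515805, minus strand), which encodes heparin-binding EGF-like growth factor, owed its lower mean to a single control liver. It stood at 1.07, 1.23, 1.67, 1.61 and 7.42 FPKM in control livers 1 to 5 and at 1.94, 1.28, 1.31, 1.57 and 0.996 FPKM in miR-181d-5p livers 1 to 5. Control liver 5 held 338 reads against 47 to 90 in the other 9 livers, among which the groups overlapped throughout. The means were 2.60 ± 2.71 against 1.42 ± 0.355 FPKM (SD, n = 5 each), with a log2 change of -0.35 (SE 0.31, adjusted p = 0.595 by limma). Without control liver 5 the control mean was 1.40 ± 0.294 FPKM (SD, n = 4), the log2 change 0.01 (SE 0.12) and the adjusted p 0.970. Hbegf is known as an immediate early gene, and other such genes were high in the same liver. Fos, chosen after its values were seen, stood at 142 FPKM there against 5.56 to 15.2 in the other 9 livers, and Egr1 at 96.2 against 11.6 to 25.2. Summed lymphocyte and neutrophil markers, 12 of 12 in the table and none at 0 in every liver, were also highest there, at 122 against 58.4 to 89.2 FPKM. So were the 12 endothelial markers, at 260 against 222 to 238 FPKM. Their most abundant genes were S100a8, a neutrophil protein (34.2 ± 10.6 against 31.9 ± 6.50 FPKM), and Clec4g, a lectin of sinusoidal endothelium (57.9 ± 6.29 against 61.8 ± 2.07). The summed hepatocyte (41046 FPKM), macrophage (2793) and stellate cell and fibroblast markers (692) were highest in control liver 5 too. Its FPKM sum over all genes, 502752, was the highest of the 10 livers. Bile duct markers stood at 399 FPKM there, against 547 in control liver 4. The part of any of these cells in the Hbegf values was not tested. The genes most like Hbegf over 10 livers were Junb, a component of AP-1, Mup5, a urinary protein, and Socs3, an inhibitor of cytokine signalling, each with a Pearson r of 0.96. Without control liver 5 these were 0.57, 0.32 and 0.75, so the likeness to Junb and Mup5 rests largely on that liver. Hbegf and Ereg had a Pearson r of 0.82 over 10 livers and 0.04 without it. Control liver 5 also had the lowest gene length trend (-0.099), and the Hbegf model is short, at a recovered length of 2375 bases. Over 10 livers, log2 Hbegf and the trend had a Pearson r of -0.62 and a Spearman rho of -0.72. With the trend removed from each liver the log2 change of Hbegf was -0.35 (adjusted p = 0.559 by limma).

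Areg (chromosome 5, 91139599 to 91148432, plus strand), which encodes amphiregulin, a ligand of the EGF receptor induced by injury and made by epithelial and immune cells, had the higher mean in miR-181d-5p livers. It stood at 5.79, 0.775, 3.11, 6.56 and 5.06 FPKM in control livers 1 to 5 and at 5.99, 6.06, 7.15, 7.39 and 4.18 FPKM in miR-181d-5p livers 1 to 5. Control liver 2 was far below the rest, with 18 reads against 76 to 171 in the other 9, and the groups overlapped. The means were 4.26 ± 2.33 against 6.15 ± 1.27 FPKM (SD, n = 5 each), with a log2 change of 0.59 (SE 0.32, adjusted p = 0.405 by limma). Without control liver 2 the control mean was 5.13 ± 1.48 FPKM (SD, n = 4) and the log2 change 0.24 (adjusted p = 0.648). The difference was thus within the spread between livers. Its 3' UTR of 253 bases, the shortest of the 9, held no seed match.

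The cAMP response element (CRE, TGACGTCA) and the AP-1 element (TGANTCA) were searched on both strands of RefSeq promoters, 250 bases before to 50 after the start, since Areg had the widest range of the tested genes (9.53 times from lowest to highest liver) and Hbegf varied with AP-1 genes. Promoters were matched for 6 of the 9 genes, and not for Erbb3, Hbegf and Ereg. Areg alone held a CRE, beginning 61 bases before the start, at position 190 of the window chr5:91139349-91139648 (plus strand, GRCm38.p6). It is present in 1.79% of 32851 promoters. No AP-1 element was in the 6 matched genes' windows, against 7.81% of promoters. At that share, none in 6 windows is a common outcome, and the Hbegf promoter could not be searched. The element is shown in capitals with its surroundings.
Areg promoter: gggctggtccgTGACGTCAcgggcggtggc

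Btc (chromosome 5, 91357261 to 91402994, minus strand), which encodes betacellulin, a ligand of the EGF receptor and ErbB4, was slightly higher on average in miR-181d-5p livers. It stood at 4.55, 3.53, 2.94, 5.30 and 3.55 FPKM in control livers 1 to 5 and at 4.83, 3.99, 6.45, 4.54 and 3.83 FPKM in miR-181d-5p livers 1 to 5. The groups overlapped, with means of 3.97 ± 0.941 against 4.73 ± 1.04 FPKM (SD, n = 5 each). The log2 change was 0.21 (SE 0.14, adjusted p = 0.501 by limma). Without miR-181d-5p liver 3, the highest, it was 0.11 (adjusted p = 0.744). Btc holds a seed match 97 bases into its 3' UTR, and its mean was not lower in miR-181d-5p livers.

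Tgfa (chromosome 6, 86195223 to 86275719, plus strand), which encodes transforming growth factor alpha, was the most abundant ligand by mean and the closest to equal between groups. It stood at 11.0, 13.4, 9.74, 12.1 and 7.31 FPKM in control livers 1 to 5 and at 11.6, 9.95, 10.4, 9.76 and 11.4 FPKM in miR-181d-5p livers 1 to 5. The miR-181d-5p livers all lay within the control range. The means were 10.7 ± 2.32 against 10.6 ± 0.825 FPKM (SD, n = 5 each), with a log2 change of 0.01 (SE 0.13, adjusted p = 0.975 by limma). The sign of so small a value turned with scaling, at -0.02 when every liver was scaled to the same FPKM sum, and it was -0.11 without control liver 5 (adjusted p = 0.499). Tgfa followed the length trend of the livers, with a Pearson r of 0.74 and a Spearman rho of 0.88.

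Egf (chromosome 3, 129677565 to 129755316, minus strand), the gene of the founding ligand, was near the detection limit, with 3 to 18 reads per liver. It stood at 0.194, 0.0762, 0.0310, 0.0717 and 0.0543 FPKM in control livers 1 to 5 and at 0.0960, 0.0504, 0.0877, 0.0546 and 0.0838 FPKM in miR-181d-5p livers 1 to 5. The means were 0.0854 ± 0.0631 against 0.0745 ± 0.0206 FPKM. The two-sided exact permutation p of the difference in mean log2(FPKM + 1) was 0.8651 (n = 5 each). Its exons overlap antisense genes over up to 607 bases, and the strand setting of the counting is not known here. At this depth no difference was detectable.

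The plot of each gene relative to its own mean shows the livers that carry the spread.

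**Figure D3:**
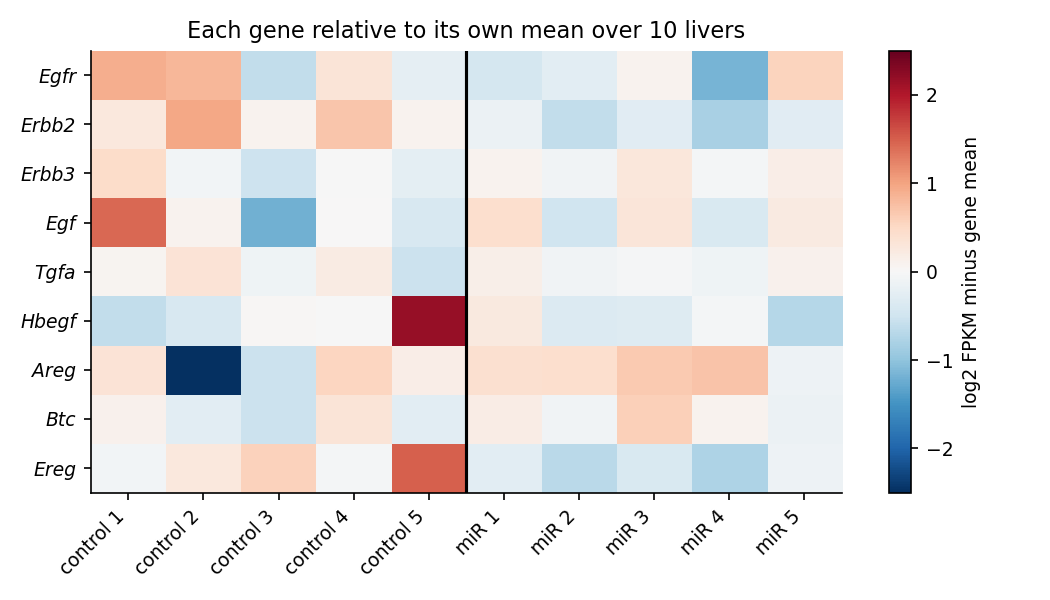
Log2 FPKM of each gene minus its mean over 10 livers, livers in columns (control AAV left, AAV-miR-181d-5p right) and colour in log2 units, clipped at 2.5 in either direction. Hbegf and Ereg are high in control liver 5, Areg is low in control liver 2, and Erbb2 and Ereg are lower in all 5 miR-181d-5p livers than in any control.

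The sum of the 6 ligands differed less between livers than single ligands did. It ran from 19.1 to 26.6 FPKM in control and from 21.5 to 26.2 FPKM in miR-181d-5p livers. Tgfa made up 27.7% to 66.0% of the sum in control and 39.6% to 53.1% in miR-181d-5p livers. In control liver 5 Hbegf made up 28.1%, against 4.53% to 8.78% in the other 9, and Tgfa its lowest share. In control liver 2 Areg made up 3.82%, against 16.3% to 30.9% in the other 9. Areg, Btc and Ereg lie near each other on chromosome 5. Over 10 livers Areg and Btc had a Spearman rho of 0.79, and Areg and Ereg one of -0.73, so these neighbours did not vary together as a set.

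**Figure D4:**
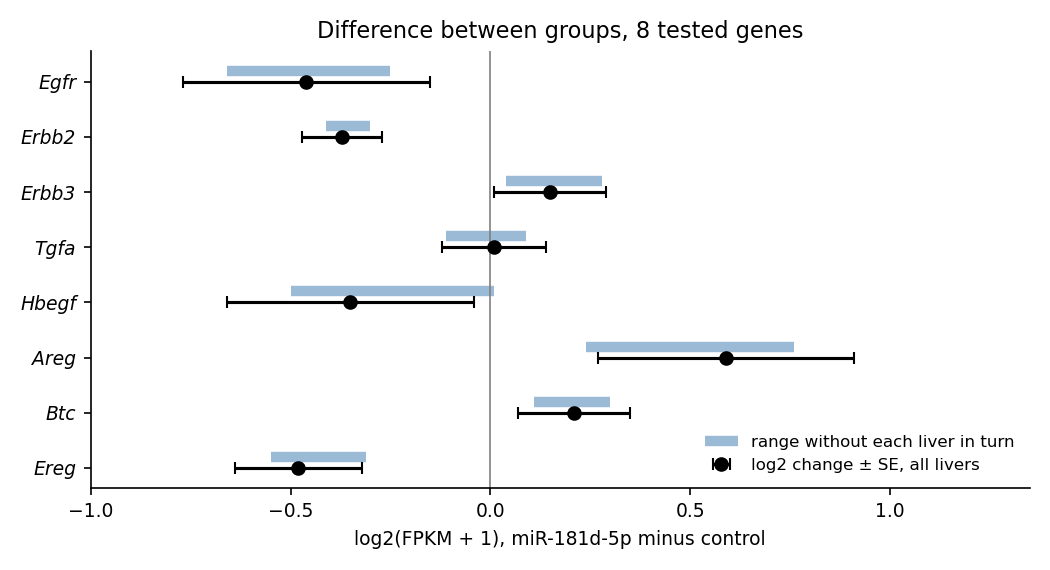
Log2 change (miR-181d-5p minus control, log2(FPKM + 1) scale) of the 8 tested genes: points with bars give the value ± SE over all livers, and blue bars the range when each liver is left out in turn. Erbb2 (-0.41 to -0.30) and Ereg (-0.55 to -0.31) stay below 0 throughout, and Hbegf reaches 0.01.

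The rest of the family was low or little different. Erbb4, the other neuregulin receptor, stood at 0.0989 ± 0.0280 against 0.0827 ± 0.0110 FPKM, and Epgn, which encodes epigen, had 4 reads over all livers. Among the ligands of ErbB3 and ErbB4, Nrg4, a fat-derived factor that acts on liver, stood at 3.35 ± 0.854 against 2.86 ± 0.887 FPKM and Nrg1 at 1.02 ± 0.198 against 0.927 ± 0.0892 FPKM. Nrg2 and Nrg3 had 46 and 1 reads over all livers. Nrg4 and Nrg1, the 2 tested, had adjusted p of 0.625 and 0.717 by limma.

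Over all tested genes, 54.5% had a lower mean log2 value in miR-181d-5p livers, and 9.63% were lower with an unadjusted p under 0.05 (1161, against 607 higher). Proteases and partners that release the ligands from the membrane were lower on average in 9 of 10 tested genes, with a median log2 change of -0.17 against -0.02 over all genes. None passed over all genes, and 3 were lower with an unadjusted p under 0.05. With each liver left out that number ran from 1 (without control liver 4 or miR-181d-5p liver 2 or 4) to 6 (without control liver 5), while the share over all genes ran from 5.59% to 14.9%. The 3 were Adam8, a metalloprotease of myeloid cells (21.5 ± 3.39 against 14.7 ± 4.79 FPKM), Rhbdf2, the partner that brings ADAM17 to the cell surface (10.8 ± 0.940 against 9.08 ± 1.23), and Adam15, a further metalloprotease (9.28 ± 1.80 against 7.24 ± 1.62).

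Feedback inhibitors of the pathway were lower on average in 14 of 17 tested genes, beside 54.5% of all genes, with a median log2 change of -0.20. None passed, and 4 were lower with an unadjusted p under 0.05, beside 9.63% of all genes. That number was 2 without miR-181d-5p liver 2 or 4 and 6 without control liver 5. The phosphatase gene Dusp4 stood at 5.14 ± 1.66 against 3.06 ± 0.918 FPKM, and Spry1, an inhibitor of Ras signalling, at 6.88 ± 1.55 against 5.09 ± 0.490. Its relative Spry2 stood at 1.12 ± 0.536 against 0.654 ± 0.133, with groups that did not overlap, as in 2.47% of all tested genes. All 3 were highest in control liver 5, and without it Dusp4, Spry1 and Spry2 stood at 68.5%, 79.9% and 73.9% of control in place of 59.5%, 74.0% and 58.2%. Genes known to be induced by EGF receptor signalling were lower on average in 8 of 11 tested genes, beside 54.5% of all genes. Without control liver 5 it was 6 of 11, beside 58.6% of all genes. The median of -0.34 for these induced genes ran from -0.41 to -0.06 over the alternatives. The latter was without control liver 5, where the median over all genes was -0.04. Among the induced genes, Cdkn1a, a cell cycle inhibitor also induced by p53, stood at 40.3 ± 3.27 against 30.7 ± 3.33 FPKM. Its groups did not overlap either, beside the same 2.47% of all tested genes, and its adjusted p was 0.221 by limma. Fosl1 and Egr1 followed by p, at 55.2% and 44.6% of control. Both were highest in control liver 5, and without it they stood at 74.4% and 81.5%.

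The signalling chain itself had smaller median differences. Over all tested genes 54.5% were lower on average and the median log2 change was -0.02. Of 22 adaptor and Ras-MAP kinase genes 16 were lower and 6 higher on average, with a median log2 change of -0.05. Gab2, a scaffold, stood at 3.70 ± 0.425 against 2.65 ± 0.379 FPKM and Src at 4.57 ± 0.766 against 3.67 ± 0.587. Araf, a RAF kinase, was higher in every miR-181d-5p liver than in any control (9.64 ± 0.494 against 10.6 ± 0.167, adjusted p = 0.342 by limma). Groups did not overlap in 2 of these 22 genes, beside 2.47% of all tested genes. The PI3 kinase, Akt and STAT branch had 13 of 15 tested genes lower (median -0.09), with Stat3 and Pik3cd at 86.5% and 84.8% of control. Genes of receptor internalisation and degradation had 12 of 15 lower (median -0.06). Those with the smallest p were Cblb, a ubiquitin ligase (75.1% of control), Stam, an endosomal sorting protein (84.7%), and Sh3kbp1, a partner of CBL (80.2%). By limma none of the genes on these lists passed over all genes tested.

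**Figure D5:**
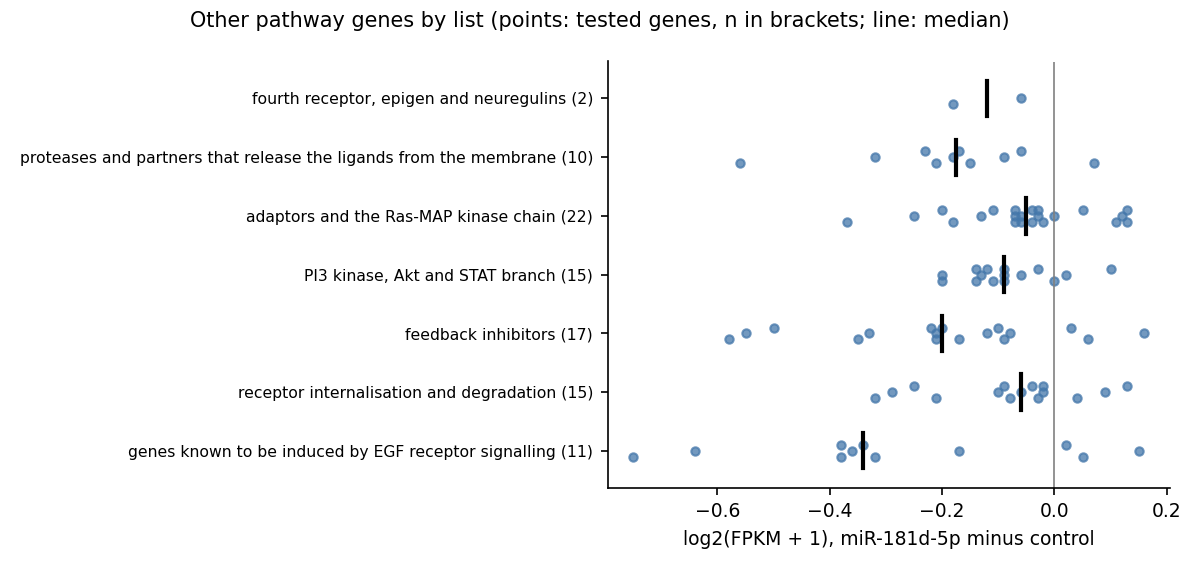
Log2 change (miR-181d-5p minus control, log2(FPKM + 1) scale) of each tested gene of the other pathway lists, 1 point per gene, with the number of genes in brackets and a line at the median. The medians lie between -0.34 for induced genes and -0.05 for the adaptor and Ras-MAP kinase chain.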

How the data were processed

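RNA was sequenced from 10 mouse livers, 5 per group, with mirVana extraction and TruSeq Stranded mRNA libraries, per the labels' protocols. The authors deposited 1 table of FPKM by gene symbol. The submitters' processing notes name DESeq2 1.18.1, FastQC 0.11.9, HISAT2 2.2.1, HTSeq 0.13.5, Trimmomatic 0.38, R 3.4.1 and the build mm10, without roles. Strand setting and FPKM formula are not given in the sources used here. Each FPKM could be turned back into reads: for 17273 of 17274 genes some whole gene length made all 10 livers come out within 0.02 of a whole number. The smallest fitting length was kept.

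For the main test, log2(FPKM + 1) was fitted for 12053 genes, those averaging 0.5 FPKM or more, with limma 3.58.1 in R 4.3.3 (trend, group only, two-sided, Benjamini-Hochberg adjustment at 0.05). The script was tested on simulated data. The EGF family genes and the pathway and marker lists were chosen with earlier results of these data known. The rule for other named genes took the 3 with the smallest p per pathway list and the most abundant of each marker list. It also took the 3 most like Egfr, Erbb3 and Hbegf by Pearson r, leaving out predicted genes, RIKEN clones and pseudogenes. One gene that this rule took is not reported here. Alternatives were other pseudocounts, filters and scalings, array weights, a replicate block, each liver left out, and voom on recovered reads (library sizes as summed, without further scaling). Added after seeing the data were voom with quality weights and removal of a length trend (lowess, span 0.3). Other steps used pandas 2.3.3, numpy 2.4.6 and matplotlib 3.10.9 in Python 3.11.15.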

Additional observations from a re-analysis of the deposited data

Results flagged for a closer look

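In 3 of the 18 groups of 5 livers formed by the 9 genes, the highest liver lay apart from the others, by Dixon's measure, the gap to its neighbour as a share of the group's range. Chance sets about 1 in 20 such groups apart. All 3 were in control livers. Hbegf stood at 7.42 FPKM in control liver 5, with a gap of 0.905 of the range, and Ereg at 2.98 FPKM in the same liver, with a gap of 0.714. Egf stood at 0.194 FPKM in control liver 1, a value of 18 reads, with a gap of 0.722.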

How the results depend on the processing

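None of the 8 tested genes passed over all genes under any of the alternatives run. The direction of Egfr, Erbb2, Erbb3, Areg, Btc and Ereg was the same in all of them, with log2 changes of -0.66 to -0.25, -0.84 to -0.30, 0.04 to 0.28, 0.24 to 0.80, 0.11 to 0.30 and -0.88 to -0.31. Tgfa turned to -0.02 both at a common sum of FPKM and with array weights, and to -0.03 by voom with quality weights, and ran from -0.11 to 0.09 with each liver left out. Hbegf ran from -0.50 to 0.01 with each liver left out, reaching 0.01 without control liver 5. The Egf difference of -0.0129 ran from -0.0309 to 0.0219 with each liver left out, the latter without control liver 1, and was -0.0384 with a pseudocount of 0.1. The count of genes past the adjusted threshold was 0 in limma, 1 with the replicate block, 0 by voom, 2 by voom with quality weights and 0 to 3 with each liver left out. Without control liver 1 it was 3. The count at an unadjusted p under 0.05 was 1768, and 1071 to 2587 with each liver left out, the lowest without miR-181d-5p liver 4. The count of genes whose groups did not overlap, 298, ran from 339 to 726, where fewer livers separate more easily. With the replicate number as a block, the log2 change of Erbb2 was -0.37 and that of Ereg -0.48, both with an adjusted p of 0.488 by limma. Same-numbered livers had correlations of -0.283 to 0.015 in their deviations. These gave no sign that the numbers pair the livers, but low correlations cannot exclude it. Erbb2, Ereg and Hbegf rest on few reads, which limits their precision, and Egf on fewer still.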
